A study of Homo sapiens with 6 samples.

Results

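The genes described here are 8 widely used markers of neural and glial identity: NES, OLIG1, OLIG2, GFAP, MAP2, TUBB3, DCX and MBP. A gene counted as measured where the array held a transcript cluster, a set of probes read out as 1 value, that carried its symbol and no other, and 7 of the 8 were measured in this way out of 33616 genes in all. The cluster of TUBB3, the neuronal beta-tubulin, also carries the symbol of its neighbour MC1R, so that no value is given for it. Each of the other 7 genes had 1 such cluster, which left no choice between clusters. The 6 arrays measured RNA of LN229R cells, a temozolomide (TMZ) resistant derivative of the human glioblastoma (GBM) line LN229, which the sample labels name as LN229. All cells of both groups had received a CAS9 virus and 7 days of puromycin, and then an sgRNA virus for 24 hours, in DMEM/F12 medium with fetal bovine serum. The sgRNA was non-targeting in ATRX NC (3 arrays) and directed against ATRX in ATRX KO (3 arrays). Whether the ATRX KO cells were a pool or 1 clone, and whether the replicates were separate cultures, is not given in the sources used here, so that the p-values reflect variation among these arrays, part or all of which may be technical.

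NES encodes nestin, an intermediate filament protein of neural stem and progenitor cells that is also made by many glioma cells. OLIG1 and OLIG2 are basic helix-loop-helix transcription factors of the oligodendrocyte lineage, of which MBP, a protein of the myelin sheath, is a late product, while GFAP is the intermediate filament of astrocytes. DCX and MAP2 bind microtubules, in migrating young neurons and in dendrites respectively. A glioma often carries genes of several of these programmes at once, and pathologists use GFAP and OLIG2 to recognise glial tumours.

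Of the 7 genes, NES and MAP2 were lower in ATRX KO and the other 5 did not pass the test. NES fell to 49.4% and MAP2 to 33.6% of their ATRX NC levels, and both were above the array median in all 6 arrays. OLIG1, OLIG2, GFAP, DCX and MBP lay below the array median in all 6 arrays of both groups. With limma and an adjusted p under 0.05, 3.72% of all genes were called lower, 5.79% higher and 9.51% in either direction, against 2 of 7 genes here, both lower. The groups did not overlap for these 2 genes only, which was so for 30.2% of all genes. The share of genes called was 1.58% among the 13955 genes that were never above the array median and 15.1% among the 19661 others, to which NES and MAP2 belong. The median log2 fold change of the 7 genes was -0.30, where that of all genes was 0.07, and the counts and medians of the gene lists given further on stand beside these same shares and this same median.

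**Figure D1:**
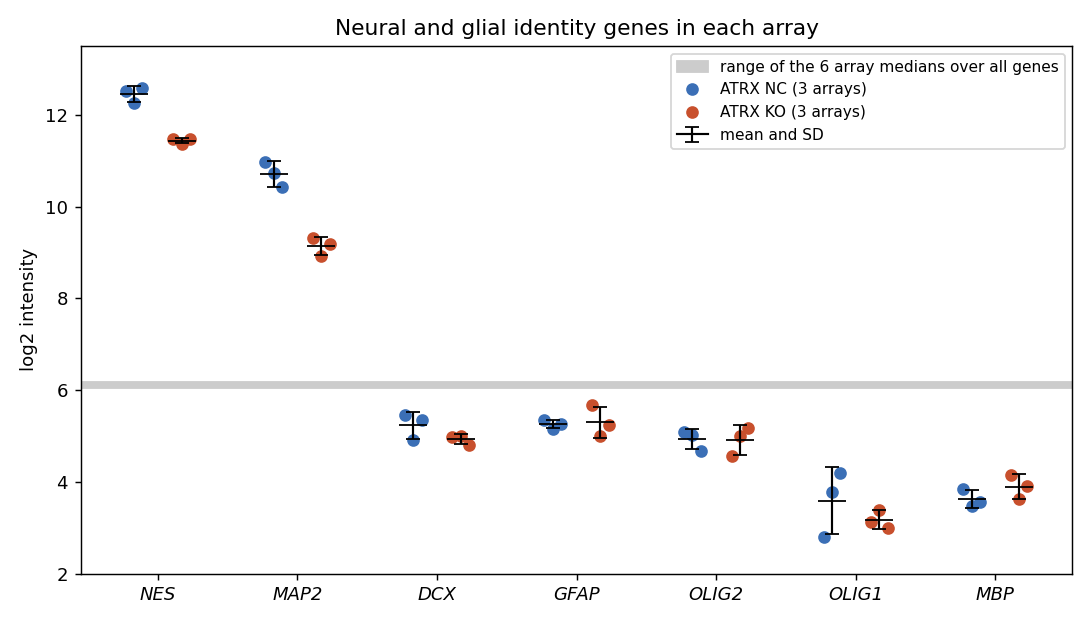
Level of each measured identity gene (log2 intensity) in the 3 ATRX NC and the 3 ATRX KO arrays, with 1 point per array, the mean and SD of each group in black, and a grey band over the range of the 6 array medians. NES and MAP2 separate the groups, and the other 5 genes overlap between them.

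**Figure D2:**
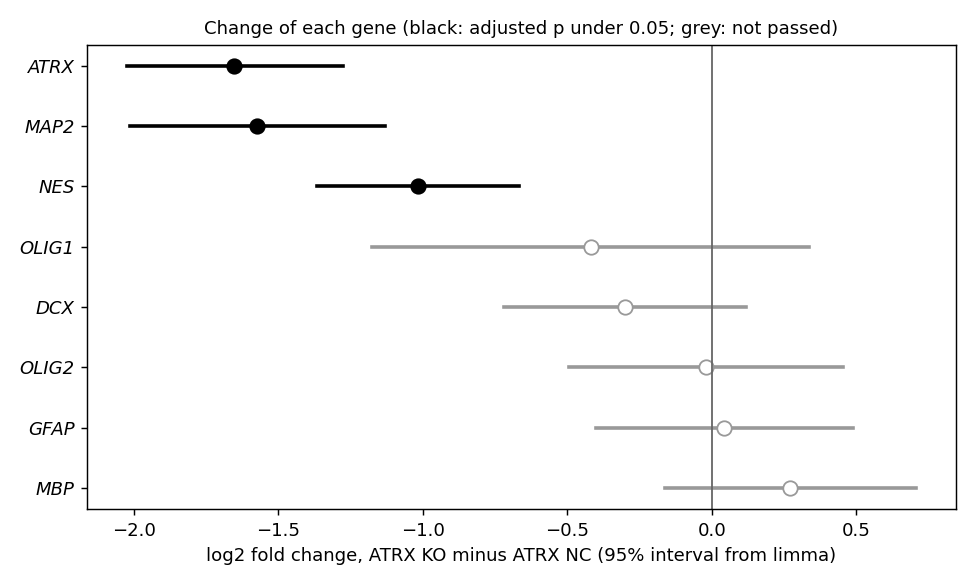
Log2 fold change (ATRX KO minus ATRX NC) of the 7 measured identity genes and of the targeted gene ATRX, each with its 95% interval from limma, black where the adjusted p was under 0.05. The intervals of NES (-1.37 to -0.67) and MAP2 (-2.01 to -1.13) lie below 0, and those of the other 5 genes include it.

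The array medians lay between 6.04 and 6.17 on the log2 scale, at 6.035 to 6.104 in ATRX NC and 6.145 to 6.173 in ATRX KO. Arrays correlated at 0.990 to 0.992 within a group and at 0.980 to 0.981 between groups. ATRX itself, the targeted gene, had log2 intensities of 10.49, 10.22 and 10.14 in ATRX NC and of 8.47, 8.67 and 8.75 in ATRX KO, a log2 fold change of -1.65 ± 0.16 (SE, n = 3 per group, limma adjusted p = 0.000561). Of the markers by which a glial tumour cell is recognised, S100B, SOX10 and SOX2 were above the array median in ATRX NC, whereas GFAP and OLIG2 were below it, and their level there was not told apart from absence since the files hold no measured floor.

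NES gave log2 intensities of 12.52, 12.26 and 12.57 in ATRX NC and of 11.47, 11.37 and 11.47 in ATRX KO. Every ATRX KO array was below every ATRX NC array, and the ATRX KO arrays lay within a narrow band. The mean went from 12.45 ± 0.17 to 11.44 ± 0.06 (SD, n = 3 each), a log2 fold change of -1.02 (SE 0.15, 95% interval -1.37 to -0.67) with a limma adjusted p of 0.00482. In bulk RNA such as this, fewer cells that express a gene and less of its RNA per cell cannot be told apart. The exact two-sided permutation test gave p = 0.1, the smallest value that 3 arrays against 3 allow.

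Nestin assembles into filaments together with vimentin. Subtracting VIM from NES within an array gives a value that a shift of the whole array cannot move, of which only the change between groups can be read, since levels of different probes are not comparable. NES minus VIM was -4.63, -4.65 and -4.53 on the log2 scale in ATRX NC and -5.58, -5.73 and -5.63 in ATRX KO. The difference between the groups was -1.04, close to that of NES alone, with the same smallest exact p of 0.1. VIM itself had a log2 fold change of 0.03 (SE 0.14, limma adjusted p = 0.934). Its value was -0.32 when its transcript clusters were averaged, which did not pass either.

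Of 13 intermediate filament genes measured, 2 fell and 11 did not pass, with a median log2 fold change of 0.04. The gene that fell beside NES was SYNM, which encodes synemin, a large filament protein that also copolymerises with vimentin and is found in astrocytes and glioma. SYNM went from 12.89 ± 0.08 to 11.36 ± 0.13 (SD, n = 3 each), a log2 fold change of -1.53 (SE 0.15, limma adjusted p = 0.00049). The nuclear lamina gene LMNA had a value of 0.10 and the neurofilament gene NEFM one of 0.44, neither past the test. The neurofilament genes NEFL, NEFM and NEFH, like GFAP, were among the 7 of 13 genes that lay below the array median on every array.

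Among the wider stem and progenitor genes NES was 1 of 3 that fell, 1 rose and 12 did not pass, of 16 measured, with a median log2 fold change of 0.02. FABP7, the brain fatty acid binding protein of radial glia, went from 15.26 ± 0.11 to 10.52 ± 0.15, or to 3.73% of its ATRX NC level (log2 fold change -4.75, limma adjusted p = 3.37e-06). MSI2, an RNA-binding protein of stem cells, had a log2 fold change of -1.12 (SE 0.16, limma adjusted p = 0.00358). SOX9, a transcription factor of glial progenitors, was the gene that rose, by 0.996 (SE 0.23, limma adjusted p = 0.0342), but this call was lost when replicate 2 or 3 of either group was left out (highest limma adjusted p = 0.105). The stem cell genes SOX2 (log2 fold change 0.44, limma adjusted p = 0.14) and CD44 (0.26, 0.33) were above the array median. Neither passed as deposited, although the groups did not overlap for either gene. SOX2 passed among genes above the median level and with a variance trend and robust fitting (lowest limma adjusted p = 0.0418). CD44 had a value of -0.0017 when its transcript clusters were averaged (limma adjusted p = 0.998). PROM1, MSI1, PAX6, SOX1 and HES5 were below the array median in all 6 arrays. Their log2 fold changes ran from -0.14 to 0.34, also without a call.

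MAP2 had the larger change of both genes that fell. Its log2 intensities were 10.97, 10.74 and 10.42 in ATRX NC and 9.31, 8.92 and 9.19 in ATRX KO. The lowest ATRX NC array stood more than a log2 unit above the highest ATRX KO array, although the ATRX NC arrays were spread more widely than for NES. The mean went from 10.71 ± 0.28 to 9.14 ± 0.20 (SD, n = 3 each), a log2 fold change of -1.57 (SE 0.19, 95% interval -2.01 to -1.13) with a limma adjusted p of 0.00173 and an exact permutation p of 0.1.

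Taken within each array, MAP2 minus NES was -1.55, -1.52 and -2.15 in ATRX NC and -2.16, -2.45 and -2.28 in ATRX KO. The groups did not overlap, but the nearest arrays, ATRX NC replicate 3 and ATRX KO replicate 1, were almost level. The difference of -0.56 log2 units had an exact permutation p of 0.1, the smallest possible. With 3 arrays per group that test cannot reach 0.05, so it does not decide whether MAP2 fell more than NES.

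DCX had log2 intensities of 5.45, 4.90 and 5.35 in ATRX NC and of 4.99, 5.01 and 4.81 in ATRX KO. The second ATRX NC array lay among the ATRX KO arrays, and the groups overlapped. The log2 fold change was -0.30 (95% interval -0.72 to 0.12, limma adjusted p = 0.369). That interval ran from 0.607-fold to 1.09-fold of the ATRX NC level.

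The promoters of NES and MAP2 are shown because these are the genes that fell together, as the 250 bases before a transcription start from RefSeq (GRCh38.p14), printed 5′ to 3′ on the strand of the gene. Capitals mark E-boxes (CANNTG, the element bound by basic helix-loop-helix factors), the SOX core ACAATG and the GC box GGGCGG, each searched on both strands, with overlaps allowed.
NES, chr1:156677408-156677657, minus strand: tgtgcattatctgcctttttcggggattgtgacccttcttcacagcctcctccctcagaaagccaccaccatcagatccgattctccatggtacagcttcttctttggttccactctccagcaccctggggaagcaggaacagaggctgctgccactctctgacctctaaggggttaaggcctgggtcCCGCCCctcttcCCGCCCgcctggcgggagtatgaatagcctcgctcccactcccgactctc
MAP2, chr2:209579082-209579331, plus strand: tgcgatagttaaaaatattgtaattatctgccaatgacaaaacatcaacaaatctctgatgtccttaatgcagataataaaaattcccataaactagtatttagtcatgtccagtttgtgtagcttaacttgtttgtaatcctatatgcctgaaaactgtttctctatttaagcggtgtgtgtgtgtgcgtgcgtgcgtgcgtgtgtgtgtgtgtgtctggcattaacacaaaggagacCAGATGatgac
MAP2, chr2:209661246-209661495, plus strand: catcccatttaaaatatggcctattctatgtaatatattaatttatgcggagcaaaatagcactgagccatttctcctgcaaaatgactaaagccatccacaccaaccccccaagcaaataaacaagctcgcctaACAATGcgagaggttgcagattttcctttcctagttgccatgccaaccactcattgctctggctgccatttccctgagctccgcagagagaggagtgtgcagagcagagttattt
The NES window had 58.0% G and C with 8 CpG, where the medians over 35116 RefSeq promoter windows were 58.0% and 11, and it held 2 GC boxes close to the start. The promoter table held 3 windows for MAP2, of which 2 are printed. All 3 lie inside the annotated span of MAP2, so that none covers its most upstream end. Which start these cells use was not measured. They had 37.6% and 44.4% G and C, with 6 and 4 CpG, and the first of them held an E-box and a run of TG repeats, the other a SOX core. The MAP2 window not printed, chr2:209579357-209579606, begins just downstream of another MAP2 start and so covers transcribed sequence. It had 51.2% G and C, 8 CpG and 2 E-boxes. An E-box was present in 61.8%, a SOX core in 9.29% and a GC box in 42.6% of all windows, so that each match is a description of the letters and none of the 3 motifs occurred in windows of both genes. Of the 8 genes, 5 had an entry in the promoter table.

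The beta-tubulins, the family of TUBB3, moved in both directions: of 8 measured, 4 rose, 2 fell and 2 did not pass, with a median log2 fold change of 0.52. TUBB2B, a beta-tubulin of the developing brain, fell by 1.37 on the log2 scale (SE 0.20, limma adjusted p = 0.00458), from 9.99 ± 0.23 to 8.62 ± 0.31. The methods' t-test did not make this call once adjusted over all genes (adjusted p = 0.0534). TUBB8, known from human oocytes, rose by 0.86 (SE 0.15, limma adjusted p = 0.00861). The calls of TUBB, TUBB4A, TUBB4B (log2 fold changes 0.58, 0.62 and 0.63) and TUBB2A (-0.66) were each lost when any single array was left out (highest limma adjusted p = 0.137). Those of TUBB, TUBB4A and TUBB4B were also lost under the other scalings of the arrays. Beta-tubulin genes are close in sequence, so that probes of 1 may also bind RNA of another, which these data do not separate.

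Of 15 genes of microtubule-associated proteins, MAP2 and DCX included, 1 fell, 1 rose and 13 did not pass, with a median log2 fold change of 0.10. MAP2 was the gene that fell. MAP1B, a protein of growing axons, was the gene that rose (0.60, SE 0.14, limma adjusted p = 0.0334), and its call was lost without any 1 array (highest limma adjusted p = 0.111) and under each of the 3 other scalings. MAP4, the broadly expressed member of the family of MAP2, had a value of 0.12 (SE 0.16, limma adjusted p = 0.722) and MAPT, the tau gene, one of -0.22 (limma adjusted p = 0.456).

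**Figure D3:**
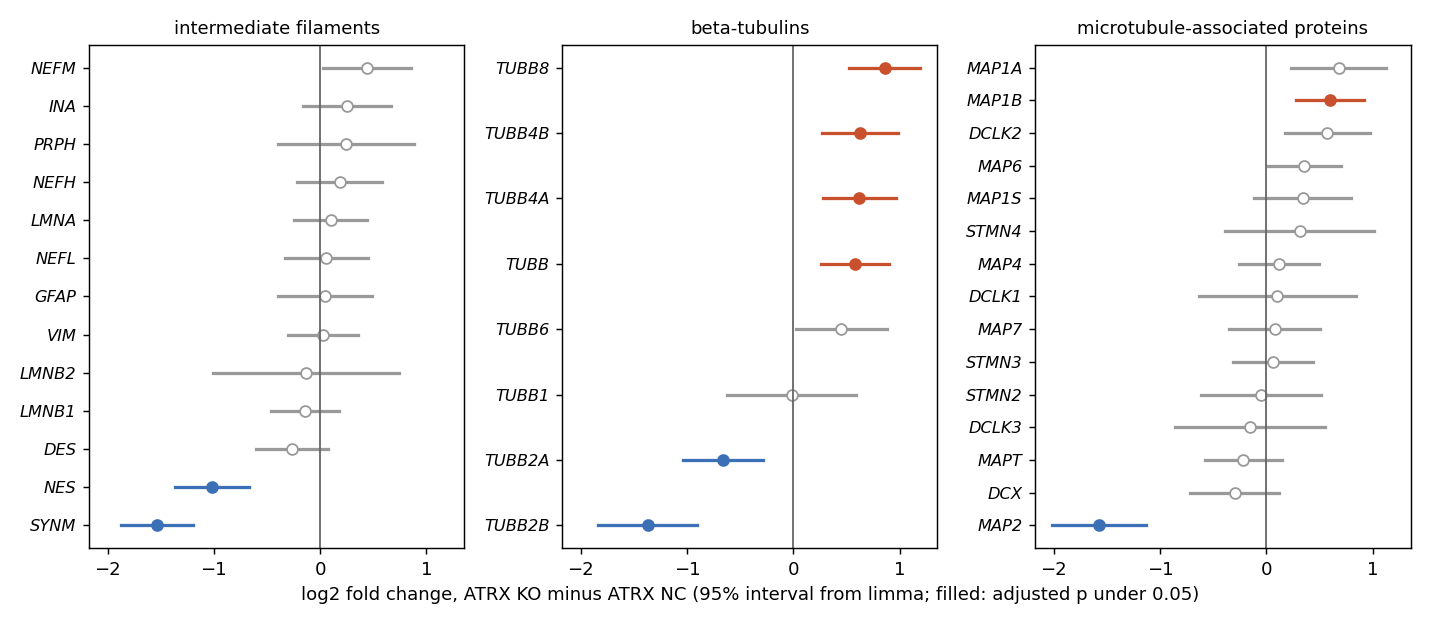
Log2 fold change (ATRX KO minus ATRX NC) with its 95% interval for each gene of the intermediate filaments, the beta-tubulins and the microtubule-associated proteins, filled where the limma adjusted p was under 0.05. NES and SYNM fell among 13 filament genes, MAP2 alone fell among 15 microtubule-associated proteins, and the beta-tubulins lay on both sides of 0.

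In the list of neuronal genes 4 rose, 2 fell and 17 did not pass, of 23 measured, with a median log2 fold change of 0.25. DPYSL3, a protein of growth cones, rose 4.44-fold from 9.03 ± 0.18 to 11.18 ± 0.22 (SD, n = 3 each, limma adjusted p = 0.000221). UCHL1, a ubiquitin hydrolase abundant in neurons, rose by 0.91 log2 units (SE 0.15, limma adjusted p = 0.0068) from a level of 15.31. MAP1B and CD24 (0.85) rose by calls that did not outlast other scalings, that of CD24 also being lost without ATRX KO replicate 2 or 3 or any ATRX NC array (highest limma adjusted p = 0.131). Beside MAP2, the neural cell adhesion molecule NCAM1 fell by 0.79 (limma adjusted p = 0.0147), a call lost when ATRX NC replicate 2 or ATRX KO replicate 1 or 3 was left out (highest limma adjusted p = 0.0594) or its transcript clusters were averaged (log2 fold change -0.60, limma adjusted p = 0.134). Genes of mature neurons were found on both sides of the array median. The synaptic genes SYT1, SNAP25 and DLG4 were above it in all 6 arrays, and the groups did not overlap for any of them. SYT1, the calcium sensor of synaptic vesicles, had a log2 fold change of 0.48 (95% interval 0.14 to 0.82, limma adjusted p = 0.0828). SNAP25, a protein of vesicle fusion, had one of -0.50 (-0.90 to -0.10, limma adjusted p = 0.124), and DLG4, the scaffold of the postsynaptic density, one of 0.84 (0.21 to 1.46, limma adjusted p = 0.0983). None of these passed as deposited, and each passed among genes above the median level and with a variance trend and robust fitting (lowest limma adjusted p = 0.0222, 0.0341 and 0.0242). SYT1 also passed among protein-coding genes, and DLG4 without ATRX NC replicate 1. RBFOX3, SYP, STMN2 and ELAVL4 were dim or close to the array median and had log2 fold changes from -0.05 to 0.51, without a call.

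OLIG2 had log2 intensities of 5.09, 5.03 and 4.68 in ATRX NC and of 4.56, 4.99 and 5.18 in ATRX KO. The groups covered the same range. The log2 fold change was -0.02 (SE 0.21, 95% interval -0.49 to 0.45, limma adjusted p = 0.968), and its sign turned without ATRX KO replicate 1 (0.16), ATRX NC replicate 1 (0.06) or ATRX NC replicate 2 (0.03).

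OLIG1 was scattered, with log2 intensities of 2.80, 3.78 and 4.20 in ATRX NC and 3.13, 3.40 and 2.99 in ATRX KO. The SD within ATRX NC, 0.72, was the widest among the 7 genes. The log2 fold change was -0.42 (SE 0.33, 95% interval -1.18 to 0.34, limma adjusted p = 0.495), a range from 0.443-fold to 1.26-fold of the ATRX NC level. It was -0.82 without ATRX NC replicate 1 and -0.11 without ATRX NC replicate 3, with no call in either case. OLIG2 minus OLIG1 within an array differed by 0.40 log2 units between the groups (exact permutation p = 0.5).

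MBP had log2 intensities of 3.84, 3.46 and 3.56 in ATRX NC and of 4.16, 3.62 and 3.91 in ATRX KO. The second ATRX KO array lay within the range of ATRX NC. The log2 fold change was 0.27 (SE 0.19, 95% interval -0.16 to 0.71, limma adjusted p = 0.435).

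Of 21 oligodendrocyte lineage genes measured, these 3 included, 5 fell and 16 did not pass, with a median log2 fold change of -0.08. SOX10, the transcription factor of oligodendrocyte precursors and neural crest, had log2 intensities of 12.17, 12.70 and 12.23 in ATRX NC and of 10.76, 10.83 and 11.05 in ATRX KO. It fell to 35.7% of its ATRX NC level (log2 fold change -1.49, SE 0.19, limma adjusted p = 0.00207), with every ATRX KO array below every ATRX NC array. Of 3 surface proteins of oligodendrocyte precursors in the list, 2 fell. CSPG4 (NG2) fell by 1.25 (SE 0.17, limma adjusted p = 0.00292) and the growth factor receptor PDGFRA by 1.06 (SE 0.15, limma adjusted p = 0.00386). GPR17, a receptor of precursors on the way to myelination, had a value of 0.44 (SE 0.15, limma adjusted p = 0.12), with every ATRX KO array above every ATRX NC array, and it passed among genes above the median level (limma adjusted p = 0.038).

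The other genes that fell in this list belong to myelin, and their calls were lost when certain single arrays were left out. UGT8, which makes the galactolipids of myelin, fell by 0.72 (SE 0.14, limma adjusted p = 0.0164), lost when replicate 1 of either group, ATRX NC replicate 3 or ATRX KO replicate 2 was left out (highest limma adjusted p = 0.0586). MAG, the myelin-associated glycoprotein, fell by 1.45 (SE 0.35, limma adjusted p = 0.0371), lost without any 1 array other than ATRX NC replicate 1 (highest limma adjusted p = 0.112). CNP, an enzyme of myelin-forming cells that was above the array median in all 6 arrays, had a value of -0.08 (SE 0.17, limma adjusted p = 0.822). The myelin genes MOG, MOBP and CLDN11 were dim or near the array median and had values from -0.16 to 0.35, without a call.

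**Figure D4:**
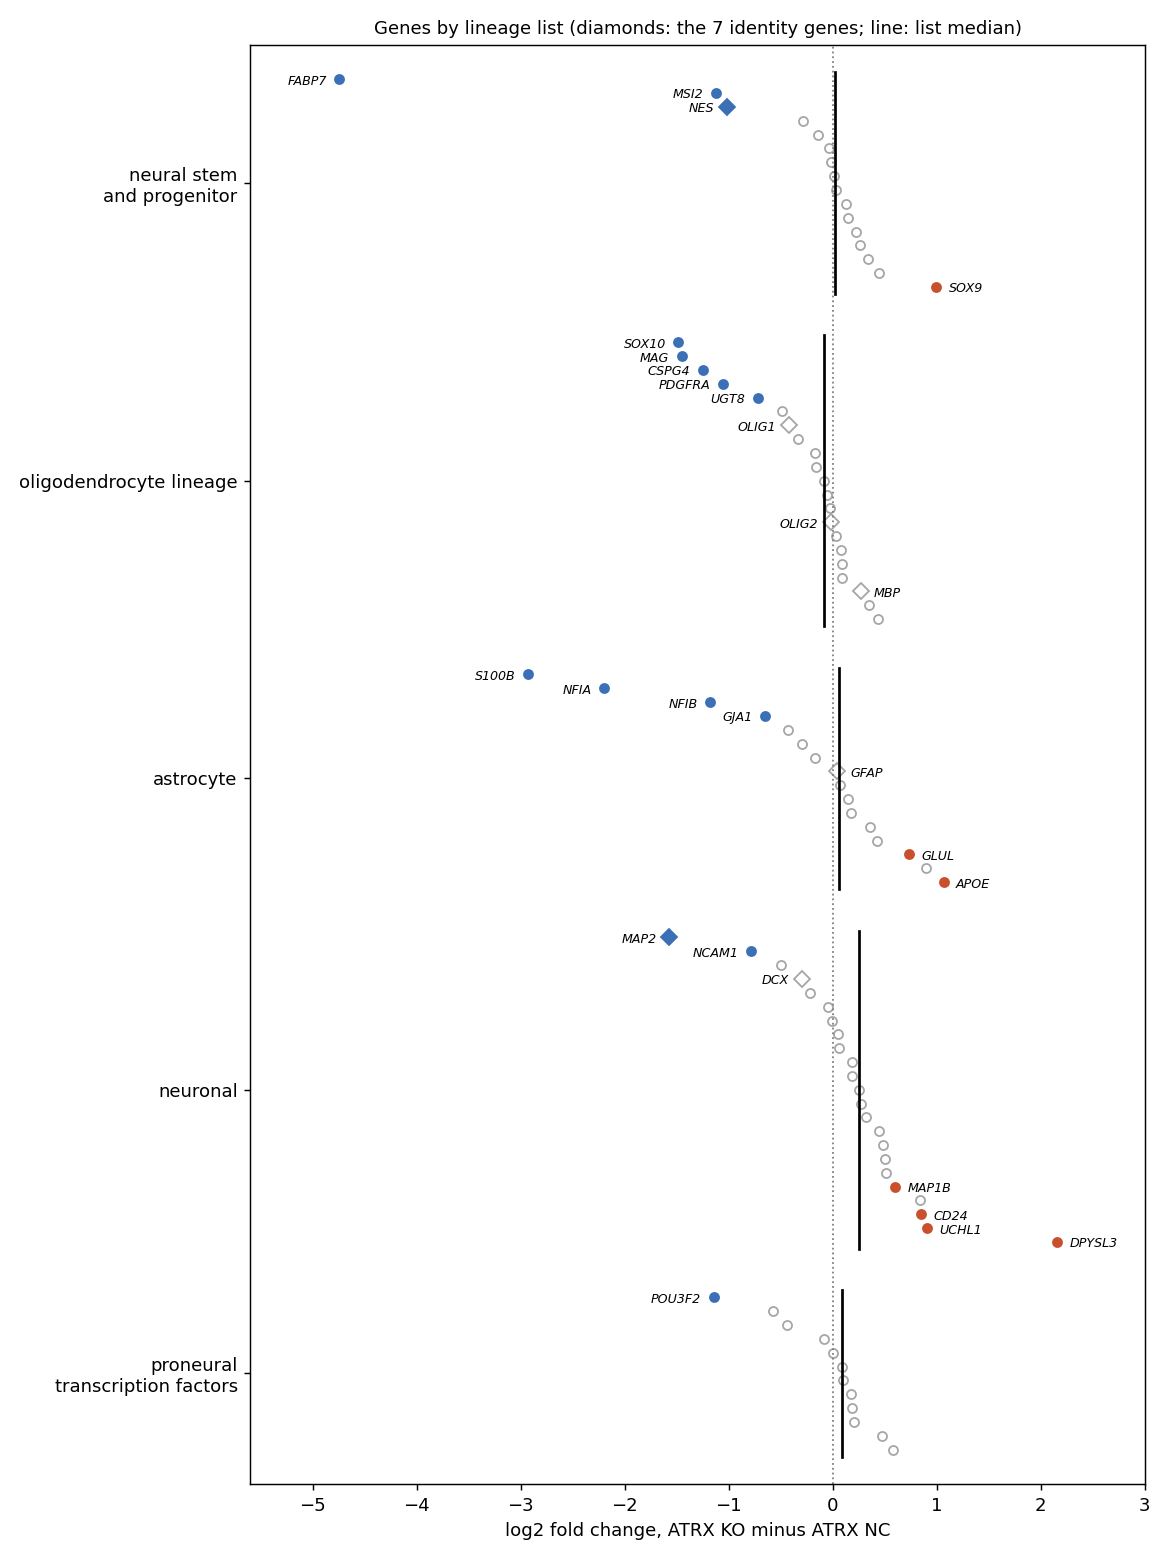
Log2 fold change (ATRX KO minus ATRX NC) of every measured gene in the lists of neural stem and progenitor, oligodendrocyte lineage, astrocyte, neuronal and proneural genes, with 1 point per gene, filled where the limma adjusted p was under 0.05, diamonds for the 7 identity genes and a black vertical line at the list median. NES and MAP2 lie at -1.02 and -1.57 among genes that mostly did not pass, and OLIG1, OLIG2, GFAP, DCX and MBP lie between -0.42 and 0.27.

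OLIG proteins act as dimers with E-proteins, and ID proteins, which bind helix-loop-helix partners but not DNA, are known to hold such dimers off DNA. Of 7 genes in this list, 3 rose, 1 fell and 3 did not pass, with a median log2 fold change of 0.47. ID2 had log2 intensities of 6.53, 6.75 and 7.06 in ATRX NC and of 12.14, 12.02 and 12.27 in ATRX KO, a 41.1-fold rise (limma adjusted p = 3.37e-06). ID3 rose 35.9-fold (log2 fold change 5.17, SE 0.17) and ID1 120.5-fold (6.91, SE 0.24), both with a limma adjusted p of 3.37e-06. ID4, known with ID2 to bind OLIG proteins in rodent neural cells, went the other way, from 7.56 ± 0.42 to 6.34 ± 0.15 (log2 fold change -1.23, SE 0.23, limma adjusted p = 0.0124). The methods' t-test did not make this call once adjusted over all genes (adjusted p = 0.0895). The E-protein genes TCF3, TCF4 and TCF12 did not pass as deposited. TCF4 had a value of 0.47 (SE 0.14, limma adjusted p = 0.0802), which passed with both filters on dim genes, among protein-coding genes, with the variance trend and with the methods' t-test (lowest adjusted p = 0.00119). The mean over its transcript clusters was 0.07 (limma adjusted p = 0.899).

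GFAP had log2 intensities of 5.35, 5.16 and 5.26 in ATRX NC and of 5.67, 5.00 and 5.23 in ATRX KO. The ATRX KO arrays lay on both sides of the ATRX NC arrays, with an SD of 0.34 against 0.09. The log2 fold change was 0.04 (SE 0.19, 95% interval -0.40 to 0.49, limma adjusted p = 0.922), and its sign turned under other scalings of the arrays and without ATRX KO replicate 1 (-0.14) or ATRX NC replicate 2 (-0.0032). GFAP minus VIM within an array differed by 0.02 log2 units between the groups (exact permutation p = 1.0).

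Other astrocyte genes did change: of 16 measured, GFAP included, 4 fell, 2 rose and 10 did not pass, with a median log2 fold change of 0.06. S100B, a calcium-binding protein of astrocytes and also of SOX10 positive glia, went from 14.59 ± 0.14 to 11.67 ± 0.19 (SD, n = 3 each), or to 13.2% of its ATRX NC level (limma adjusted p = 3.36e-05). Both NFIA and NFIB, transcription factors that start gliogenesis and act on the GFAP promoter in mice, fell, by 2.20 (SE 0.24, limma adjusted p = 0.000929) and 1.18 (SE 0.15, limma adjusted p = 0.0021), while NFIX had a value of 0.36 (limma adjusted p = 0.239). The gap junction gene GJA1 fell by 0.65, lost without any 1 array (highest limma adjusted p = 0.139). APOE, the lipid carrier that astrocytes secrete, rose by 1.07 (SE 0.15, limma adjusted p = 0.00358), and glutamine synthetase GLUL by 0.73 (SE 0.15, limma adjusted p = 0.0175), the latter lost when replicate 1 or 3 of either group was left out (highest limma adjusted p = 0.0725). Other genes of mature astrocytes had no call at any level. The glutamate transporter gene SLC1A3 (0.15, 95% interval -0.26 to 0.56) and the glycolytic gene ALDOC (-0.30, -0.67 to 0.08) were above the array median in all 6 arrays. ALDH1L1, a folate enzyme, was above it in 5 of 6, with a value of 0.89 (-0.02 to 1.81), and AQP4 and GJB6 were dim, with values of 0.17 and 0.07.

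Markers of other cell types were measured beside these genes. Of 8 fibroblast and mural markers, 3 rose and 5 did not pass. LUM rose by 3.52, DCN by 2.28 and PDGFRB by 1.84 on the log2 scale. Those that did not pass were COL1A2 (0.68), THY1 (0.48), RGS5 (0.24), ACTA2 (-0.09) and COL1A1 (-0.31). COL1A2 passed among genes above the median level and without ATRX KO replicate 2. Its value was 0.06 when its transcript clusters were averaged (limma adjusted p = 0.874). For COL1A1 every ATRX KO array was below every ATRX NC array, but its value was 0.57 when its transcript clusters were averaged. The summed linear intensity of that list ran from 4871 to 5178 over the ATRX NC arrays and from 33980 to 47400 over the ATRX KO arrays, most of it from LUM, and no marker of the list was below the array median on every array. Of 6 endothelial markers PECAM1 rose (1.52, lost without ATRX KO replicate 1 or 3, highest limma adjusted p = 0.0634), and of 6 epithelial markers KRT19 rose (0.74, lost without any 1 array other than ATRX KO replicate 1, highest limma adjusted p = 0.0961). Of 7 immune markers limma called 0, with 2 at an unadjusted p under 0.05 and 0 by the methods' t-test after adjustment. The 2 were CD3E (0.59, limma adjusted p = 0.0518) and CSF1R (0.57, 0.169), and the others had values from -0.29 to 0.16. CD3E did not overlap between the groups. It passed with both filters on dim genes, among protein-coding genes and with the variance trend (lowest limma adjusted p = 0.013). The summed linear intensity of the 7 markers was 381.2 to 413.0 in ATRX NC and 458.9 to 501.8 in ATRX KO. The part of other cell types in the changes of NES, MAP2 and the lineage lists was not tested.

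**Figure D5:**
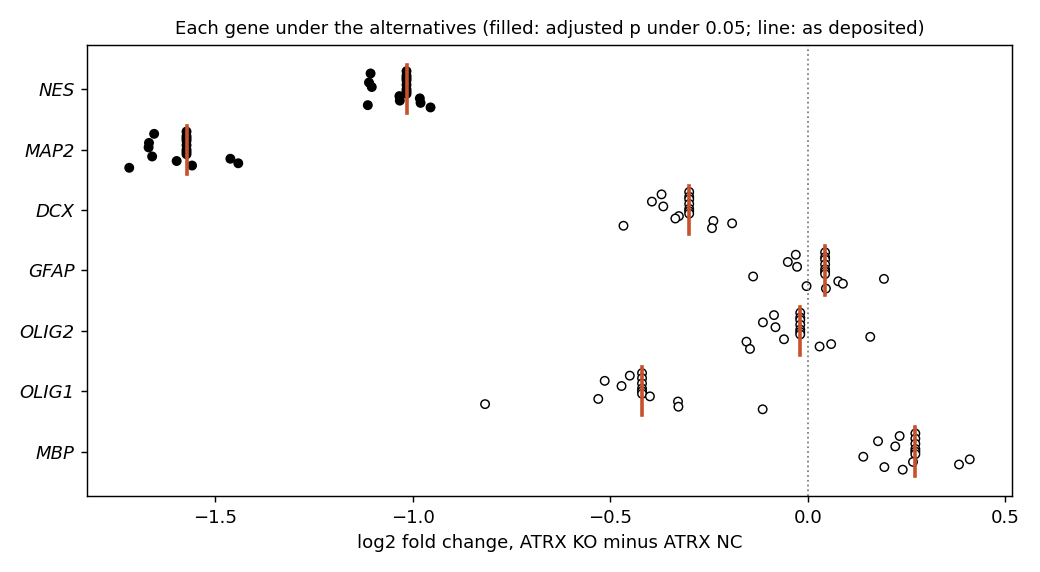
Log2 fold change (ATRX KO minus ATRX NC) of the 7 measured identity genes under each processing setting, with 1 point per setting and a line at the value from the deposited scale. NES stayed between -1.11 and -0.96 and MAP2 between -1.72 and -1.44, whereas OLIG2 and GFAP fell on both sides of 0.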

How the data were processed

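The values are log2 intensities deposited by the authors for 6 arrays, hybridised with biotin-labelled RNA. The methods state quantile normalization with limma, and the array medians over all transcript clusters ran from 5.283 to 5.31. The methods name Agilent arrays while the identifiers are of an Affymetrix whole-transcript design, and the background correction and the summary over probes are not stated in the sources used here. The scale has no measured floor, so that folds of genes below the array median may be compressed. The precision is limited by the 3 arrays per group.

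Of 135748 transcript clusters, 36176 carried 1 gene symbol, 1119 several and 98453 none in the annotation used. Of the 36176, 25516 symbols were matched by Entrez number to RefSeq. The cluster with the highest mean over all arrays stood for each gene, which gave 33616 genes. The groups were compared with lmFit and eBayes (limma 3.58.1, R 4.3.3, statmod 1.5.0) on all genes, with Benjamini-Hochberg adjustment over all of them and a threshold of 0.05. Single values were also compared by exact two-sided permutation. Fold changes are ATRX KO minus ATRX NC. The procedure was tested on simulated data.

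All measured members were described, and of the other listed genes those past the threshold and examples that define a list were named. The 8 members and the gene lists were chosen with earlier results of these data known. Of 155 listed genes, 146 were measured. The alternatives were other scalings of the arrays, filters on dim genes, the mean over the clusters of a gene, protein-coding genes only, a variance trend with robust fitting, a replicate block, leaving out each array, and the methods' t-test. The methods name the t-test without an adjustment, and it was adjusted here by Benjamini-Hochberg over all genes. A test over all transcript clusters was added after seeing the data. Promoter windows came from RefSeq (GRCh38.p14).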

Additional observations from a re-analysis of the deposited data

How the results depend on the processing

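NES and MAP2 kept their direction and their call under every alternative run. NES lay between -1.11 and -0.96 (highest limma adjusted p 0.0363, over all transcript clusters) and MAP2 between -1.72 and -1.44 (highest adjusted p 0.034). No call was made for OLIG1, OLIG2, GFAP, DCX or MBP under any of them. A filter that kept genes above the median level dropped these 5 genes, and a filter at the lower quartile dropped MBP and OLIG1. GFAP reversed to -0.0304 with cyclic loess, to -0.0506 with median centring and to -0.0272 with quantile normalization over the genes tested. Without 1 array GFAP ran from -0.14 to 0.19 and OLIG2 from -0.16 to 0.16. The causes were not tested.

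The counts of genes higher and lower (1947 and 1251) were 3141 and 1949 among genes above the median level, 3207 and 1934 with a variance trend and robust fitting, 1224 and 771 with the methods' t-test after adjustment (4650 and 2775 before), and 1037 to 1354 and 739 to 836 without 1 array. With a replicate block they were 1255 and 804. Under the other scalings more genes were lower than higher. The counts higher and lower were 1494 and 1574 with quantile normalization over the genes tested. They were 1461 and 1605 with median centring and 1509 and 1555 with cyclic loess. Arrays with the same replicate number had deviations correlated at -0.02, -0.04 and -0.0043, so that no pairing was seen in them. Whether the numbers mark a shared culture or day is not given in the sources used here.

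Genes that rose numbered as follows. For beta-tubulins it was 1 under each of the 3 scalings and the block, 2 with the t-test and 1 without any 1 array. For neuronal genes it was 2 under each scaling and the block, 7 above the median level and 2 to 3 without 1 array. For microtubule-associated proteins it was 0 under each scaling and the block, 2 with both filters on dim genes and with the variance trend, 3 among protein-coding genes and 0 to 1 without 1 array. For progenitor genes it was 2 above the median level and with the variance trend, 0 with the block and the t-test and 0 to 1 without 1 array. For astrocyte genes it was 1 with the block and 1 to 2 without 1 array. For epithelial markers it was 0 under each scaling, the block and the t-test, 2 among protein-coding genes and 0 to 1 without 1 array. For endothelial markers it was 0 with the t-test and 0 to 1 without 1 array. For immune markers it was 1 with both filters, among protein-coding genes and with the variance trend. For helix-loop-helix genes it was 4 instead of 3, with TCF4 added, under both filters, among protein-coding genes, with the variance trend and with the t-test. It was 1 for oligodendrocyte genes above the median level and 1 for proneural genes among protein-coding genes. Genes that fell numbered 1 for beta-tubulins with the block or without any 1 array and 0 with the t-test, and 0 for helix-loop-helix genes with the t-test. They numbered 1 for neuronal genes with the mean over clusters and 1 to 2 without 1 array, and 3 to 4 for oligodendrocyte genes without 1 array. Of single calls, the t-test also ended those of SOX9, MAG, GJA1, CD24, TUBB2A, TUBB4A, TUBB4B, PECAM1 and KRT19, the block those of SOX9, UGT8, GLUL, GJA1, MAP1B, CD24, KRT19, TUBB, TUBB2A, TUBB4A and TUBB4B, and each scaling that of KRT19.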

Other observations

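Of 12 proneural transcription factors and related genes measured, 1 fell and 11 did not pass, with a median log2 fold change of 0.09. POU3F2 (BRN2), a factor of neural progenitors and neurons, gave log2 intensities of 6.63, 6.90 and 6.91 in ATRX NC and of 5.77, 5.43 and 5.81 in ATRX KO, with no overlap between the groups. Its log2 fold change was -1.15 (SE 0.17, limma adjusted p = 0.00472). SOX4 and SOX11, which act in young neurons, were above the array median in all 6 arrays and had values of 0.20 (95% interval -0.19 to 0.60) and -0.44 (95% interval -1.05 to 0.17). NEUROG1, NEUROG2, NEUROD2 and ATOH1, proneural factors with a basic helix-loop-helix domain, lay below the array median in all 6 arrays, with log2 fold changes from -0.57 to 0.19. The Notch ligands DLL1 and DLL3 were below the array median in all 6 arrays, with values of 0.48 and 0.17 and no call. MYT1 had a value of 0.58 (limma adjusted p = 0.0927), with no overlap between the groups. It did not pass as deposited but passed among protein-coding genes (limma adjusted p = 0.0457).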
